A study of Mus musculus with 6 samples.

Results

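The 10 genes described here are the Notch receptors Notch1, Notch2 and Notch3, the ligands Dll1, Dll3, Jag1 and Jag2, and the target genes Hes1, Hes5 and Hey1. They were measured in cultured mouse hippocampal cells in which Diras2, which encodes a small GTPase related to Ras, had been knocked down. Each gene was read from an array probe set whose platform annotation gives that symbol and no other, and where a gene had several the brightest over all arrays was used. All 10 genes were found, on 12 probe sets, among 22180 genes tested.

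The cells were taken from the hippocampi of embryos at day 18 of gestation, grown as a primary culture in Neurobasal medium with B27, which as a rule favours neurons and keeps some glia, and infected 7 days after seeding with the adeno-associated virus AAV1/2. RNA was taken 7 days after infection, and each sample was hybridised to 1 Affymetrix whole-transcript array. The construct delivered was directed against Diras2 in 3 samples (Diras2 knockdown) and was a scrambled sequence in the other 3 (scrambled control). The labels name no strain, sex, litter, construct sequence or infected share of the cells, and they describe the replicates as biological with no word on separate dissections. A p-value here therefore reflects variation among the 6 samples, some of it possibly technical. With 1 construct, effects of losing Diras2 and other effects of that construct cannot be told apart.

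Notch signalling passes between touching cells. A ligand of the Delta or Jagged family on one cell binds a Notch receptor on its neighbour, the receptor is cut, and its freed intracellular part joins the DNA-binding protein RBPJ and Mastermind proteins in the nucleus to switch on genes such as Hes1, Hes5 and Hey1. These targets encode basic helix-loop-helix repressors that hold back proneural genes, and in the developing hippocampus the pathway is known for keeping neural stem cells and radial glia undifferentiated and for favouring astrocytes over neurons.

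The targeted gene was checked first. Diras2 had log2 levels of 7.17, 6.23 and 6.08 in the knockdown arrays and of 10.17, 10.17 and 9.76 in the controls, so the groups lay far apart. Its relative Diras1 was lower too, at 5.76, 5.99 and 6.08 against 7.14, 7.31 and 7.42, a log2 difference of -1.35 (SE 0.12; 2.54-fold; limma adjusted p 0.00105), with no overlap between the groups. RNA integrity numbers were 9 to 9.3 in the knockdown and 8.8 to 9.2 in the control samples. Over all genes 924 were called higher and 807 lower in the knockdown by limma at a Benjamini-Hochberg adjusted p under 0.05, which is 7.8% of the genes tested (4.17% higher, 3.64% lower).

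None of the 10 Notch genes was called: 0 were higher and 0 lower by limma, and 1, Hes1, had an unadjusted p under 0.05, where 20.9% of all genes did. Hes1 was the one whose arrays separated by group, with a lower level in every knockdown array, and it was called lower when the replicate number was entered as a block. The other 9 overlapped between the groups, and 4 of the 10 differences lay above 0 and 6 below. The median log2 difference of the 10 was -0.04 against 0.00 over all genes, and the median size of a difference was 0.12 against 0.14. The 95% intervals of all 10 differences lay within 1 log2 unit of 0, and 6 of the 10 lay within 0.5. On the probe sets used, 2-fold changes of these signals in either direction thus lie outside the intervals. The interval of the dimmer Hes5 probe set, described below, ran from 0.13 to 1.40 and includes a 2-fold rise. Dll3 was read at 3.15 to 3.85, where RMA compresses values, so a larger change of its transcript may be hidden. Smaller changes may have gone undetected with 3 arrays a group. In bulk RNA, fewer cells of a type and less RNA per cell cannot be told apart.

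**Figure D1:**
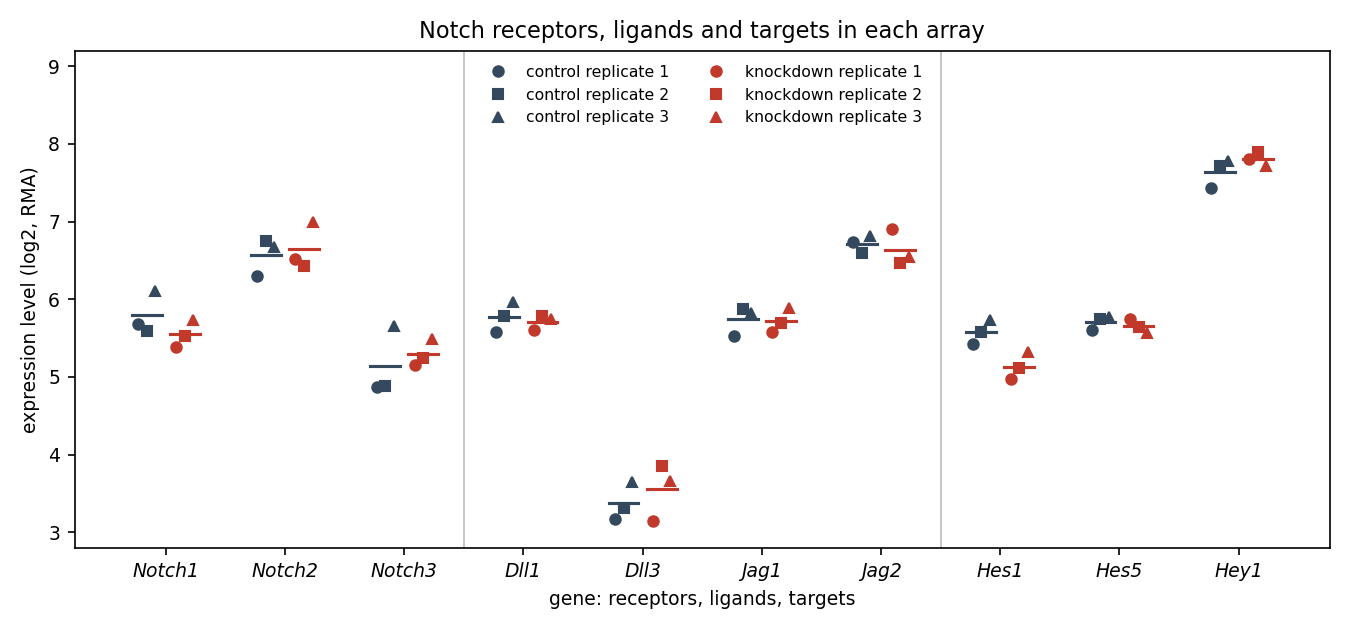
Log2 RMA expression level (vertical axis) of the 10 Notch genes, grouped as receptors, ligands and targets, in 3 control and 3 knockdown arrays. Each point is 1 array, its shape gives the replicate number and short bars are group means; Hes1 is the gene whose 3 knockdown points (4.97 to 5.32) all lie below its 3 control points (5.43 to 5.73). Levels of different genes come from different probes and are not comparable with each other.

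Among the receptors, Notch1, the receptor best known from neural stem cells, read 5.39, 5.53 and 5.73 in the knockdown arrays and 5.68, 5.59 and 6.11 in the controls (log2 RMA levels, replicates 1 to 3). Control replicate 3 was the highest of the 6 arrays and knockdown replicate 1 the lowest, and the groups overlapped. The log2 difference, knockdown minus control, was -0.24 (SE 0.16, 95% interval -0.61 to 0.12; limma adjusted p 0.456).

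Notch2, which is shared by radial glia, astrocytes and many other cells, read 6.52, 6.43 and 6.99 in the knockdown and 6.30, 6.75 and 6.67 in the control arrays. Both the highest value and the second lowest were knockdown arrays. Its log2 difference was 0.07 (SE 0.18, 95% interval -0.34 to 0.48; limma adjusted p 0.876).

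Notch3, which in the brain is best known from the mural cells of blood vessels, read 5.15, 5.25 and 5.49 in the knockdown and 4.87, 4.89 and 5.65 in the control arrays. Control replicate 3 lay above all 3 knockdown arrays, while the other control arrays lay below them. The log2 difference was 0.16 (SE 0.21, 95% interval -0.33 to 0.65, limma adjusted p 0.756). It was 0.42 without control replicate 3 (limma adjusted p 0.128), 0.03 without control replicate 1 and 0.04 without control replicate 2 (limma adjusted p 0.967 each).

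The 4 ligands had a median difference size of 0.07 on the log2 scale, against 0.16 for the receptors and for the targets. Dll1, the Delta ligand of newborn neurons, read 5.60, 5.79 and 5.74 in the knockdown and 5.58, 5.78 and 5.96 in the control arrays. Replicates 1 and 2 were nearly equal in both groups. Its log2 difference was -0.06 (SE 0.12, 95% interval -0.35 to 0.22; limma adjusted p 0.840), and a second, dimmer probe set of Dll1 gave -0.07 (95% interval -0.31 to 0.17).

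Dll3, a divergent Delta protein that acts on Notch within the same cell, read 3.15, 3.85 and 3.66 in the knockdown and 3.17, 3.31 and 3.65 in the control arrays. All 6 values lay below the array medians of 4.03 to 4.11, where RMA values are compressed, and whether the probe set lay above background was not tested. Its log2 difference was 0.18 (SE 0.20, 95% interval -0.28 to 0.63; limma adjusted p 0.701), and knockdown replicate 2 was the highest array.

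Jag1, the Jagged ligand that signals to neural stem cells in the dentate gyrus, read 5.58, 5.70 and 5.89 in the knockdown and 5.53, 5.87 and 5.82 in the control arrays. The groups covered the same range, and the log2 difference of -0.02 (SE 0.13, 95% interval -0.32 to 0.29; limma adjusted p 0.965) was the nearest to 0 of the 10. Jag2, the second Jagged ligand, read 6.90, 6.47 and 6.54 in the knockdown and 6.74, 6.59 and 6.82 in the control arrays. Its knockdown arrays included both the highest and the lowest value, and the log2 difference was -0.08 (SE 0.14, 95% interval -0.39 to 0.23; limma adjusted p 0.814).

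Among the targets, Hes1, a repressor that keeps progenitors from differentiating and that also responds to signals other than Notch, read 4.97, 5.11 and 5.32 in the knockdown and 5.43, 5.58 and 5.73 in the control arrays. Every knockdown array lay below every control array, a separation that 12.1% of all genes showed in the same direction, 13.4% in the opposite one and 25.5% in either. The group means were 5.13 ± 0.18 and 5.58 ± 0.15 (SD, n = 3), a log2 difference of -0.45 (SE 0.13, 95% interval -0.74 to -0.15), or 1.36-fold. Limma gave an unadjusted p of 0.00815 and an adjusted p of 0.0802. An exact two-sided permutation test of this gene over the 6 arrays gave 0.1, the smallest p that 3 against 3 arrays allow.

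Arrays with the same replicate number deviated together across genes, and for Hes1 the difference within each number was nearly constant, at -0.46, -0.47 and -0.41. With the replicate number as a block the standard error was 0.09 and Hes1 was called lower, with an adjusted p of 0.0262 by limma. Under that fit it was the 1 member called of 10, where 11.7% of all genes were called (6.05% higher, 5.64% lower). Hes1 also passed when genes with a mean level under 5 were left out (limma adjusted p 0.0476). In that fit 1173 genes were called higher and 1004 lower. The limma adjusted p of Hes1 over the alternatives tried ran from 0.0262 to 0.252, the last with the RNA integrity number as covariate.

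Hes5, the target most closely tied to Notch activity in neural stem cells, carries in its promoter the short sequence TGGGAA that RBPJ is known to bind. The letters TGGGAA were searched on both strands of the 300 bases from 250 before to 50 after the RefSeq gene start (GRCm38.p6). The 8 members with a promoter in the table have 9 such promoters, and 1 of the 9, that of Hes5, holds a match. Of all 32851 promoters of that length 25.6% hold 1 or more and 3.79% hold 2 or more. Printed below are the first 253 bases of 3 promoters with 2 matches each, that of the target Hes5 (chr4:154960673-154960925, plus strand), that of Rbpj itself (chr5:53590096-53590348, plus strand), the gene of the pathway that fell most, and that of Hey2 (chr10:30842781-30843033, minus strand), the target that rose. They run 5′ to 3′ in the direction of the gene and end 3 bases after its start, with matches in capitals, TTCCCA being the match on the other strand.

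Hes5: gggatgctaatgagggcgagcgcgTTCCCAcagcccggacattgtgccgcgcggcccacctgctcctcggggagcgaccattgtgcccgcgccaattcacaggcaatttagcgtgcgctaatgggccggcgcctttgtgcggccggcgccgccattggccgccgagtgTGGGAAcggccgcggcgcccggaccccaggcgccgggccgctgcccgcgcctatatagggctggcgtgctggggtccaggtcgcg

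Rbpj: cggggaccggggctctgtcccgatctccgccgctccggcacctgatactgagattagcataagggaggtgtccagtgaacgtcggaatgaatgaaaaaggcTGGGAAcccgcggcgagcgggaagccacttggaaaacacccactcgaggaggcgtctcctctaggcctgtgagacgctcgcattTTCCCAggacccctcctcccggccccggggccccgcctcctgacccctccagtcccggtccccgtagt

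Hey2: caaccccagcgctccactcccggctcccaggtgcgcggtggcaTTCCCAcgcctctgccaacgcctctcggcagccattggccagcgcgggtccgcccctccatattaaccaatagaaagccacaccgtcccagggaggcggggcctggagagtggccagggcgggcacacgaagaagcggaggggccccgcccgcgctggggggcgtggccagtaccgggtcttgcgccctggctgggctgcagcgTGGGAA

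The Hes5 matches begin 226 and 82 bases before the start, those of Rbpj 149 and 65 bases before it, and those of Hey2 207 and 3 bases before it. A second RefSeq promoter of Rbpj holds 1 match. Rbpj and Hey2 are not members and were picked by their differences. Matches in the other called pathway genes were not listed, so the 3 printed promoters do not describe the called genes as a set. A match is a stretch of letters and was not shown to be bound here, and no promoter of Hes1 or Hey1 was analysed here. The N-box CACNAG, a site known for HES proteins, matched 4 of the 9 member promoters (42.5% of all promoters), the E-box CANNTG matched 5 (72.3%), and TATAAA matched 0 (13.6%). None of these letters overlapped a TGGGAA match in the 3 promoters printed.

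The Hes5 level came out differently on its 2 probe sets. The brighter one read 5.74, 5.64 and 5.57 in the knockdown and 5.61, 5.75 and 5.77 in the control arrays, the narrowest range of the 10 genes at 0.20. Its log2 difference was -0.06 (SE 0.10, 95% interval -0.29 to 0.17; limma adjusted p 0.811). The dimmer one read 4.99, 5.95 and 6.13 in the knockdown and 5.11, 4.96 and 4.71 in the control arrays. Knockdown replicates 2 and 3 were thus higher than every control array and knockdown replicate 1 was not. When all 23521 probe sets with 1 gene symbol were tested side by side, an analysis chosen after seeing the data, this probe set had a log2 difference of 0.76 (SE 0.28, 95% interval 0.13 to 1.40) and an adjusted p of 0.161 by limma, and of 0.136 with the replicate block. Neither probe set passed, and the values pointed in opposite directions. The files do not say which part or strand of the gene each one reads. Which of them follows the Hes5 transcript is therefore unknown, and the brighter one was used by rule only.

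Hey1, a Notch target also expressed in vessel walls and in neural progenitors, read 7.81, 7.90 and 7.71 in the knockdown and 7.43, 7.72 and 7.78 in the control arrays. Control replicate 1 was lower than the other 5 arrays, which lay close together. The log2 difference was 0.16 (SE 0.12, 95% interval -0.12 to 0.44; limma adjusted p 0.526).

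**Figure D2:**
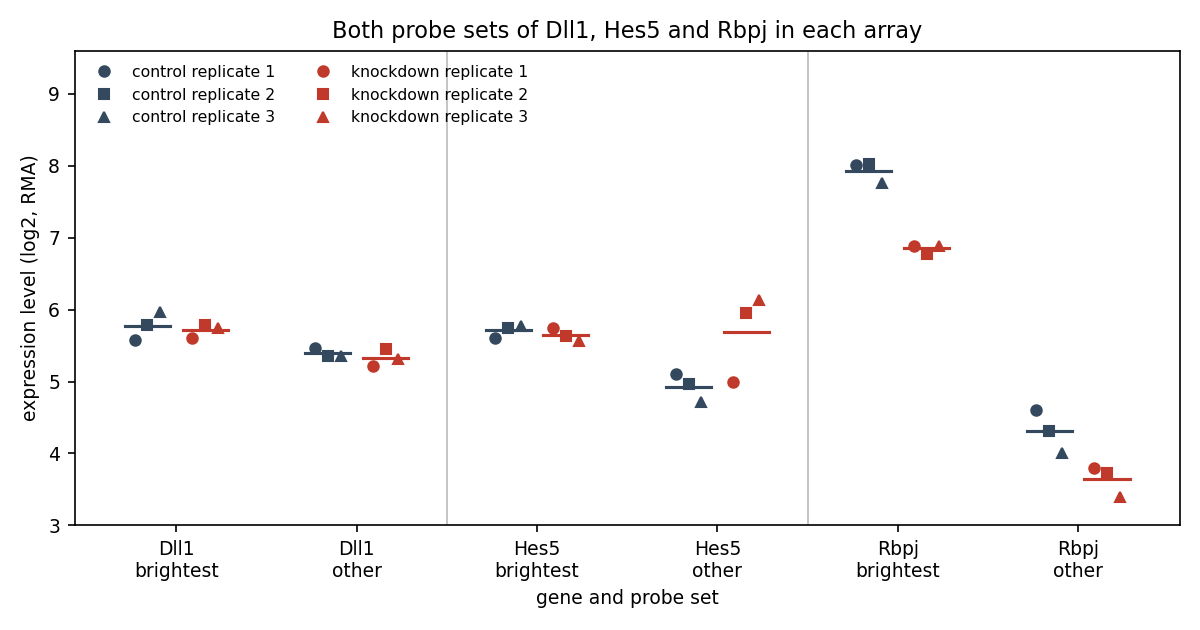
Log2 RMA expression level (vertical axis) of both probe sets of Dll1, Hes5 and Rbpj in each array, with points, shapes and bars as in the plot of the 10 genes by array. The dimmer Hes5 probe set is higher in knockdown replicates 2 and 3 (5.95 and 6.13) but not in replicate 1 (4.99), while both Rbpj probe sets are lower in all 3 knockdown arrays.

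The spread between arrays of a group was as wide as most of these differences. For 7 of the 10 genes the difference was smaller than the pooled SD within groups, whose median over the 10 was 0.18 against 0.15 over all genes. Control replicate 3 was the highest control for 8 of the 10 genes, where it was for 37.9% of all genes, and control replicate 1 was the lowest control for 8 of the 10. Over whole marker lists, control replicate 3 was the highest control for 6 of 8 neural progenitor markers and 7 of 7 of the oligodendrocyte lineage, but for 4 of 12 astrocyte and radial glia markers, of which it was the lowest for 7, and for 0 of 8 neuronal markers, of which it was the lowest for 7. The 2 brightest progenitor markers were the intermediate filament Vim and the transcription factor Sox2. They read 10.98, 11.62 and 11.98 and 8.09, 8.55 and 8.95 in control replicates 1 to 3. Of the 2 brightest astrocyte and radial glia markers, the enzyme Aldoc ran the other way at 11.01, 10.56 and 10.39. The other, Fabp7, had no steady order, at 11.41, 11.70 and 11.36. The marker lists thus did not order the control arrays alike, and their part in the Notch levels was not tested.

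By the rule of smallest root mean square difference between centred log2 profiles over the 6 arrays, the genes most like Hes1 among 9016 compared were Ccnq (0.02), Sdhb (0.04) and Idnk (0.05), a cyclin, a subunit of succinate dehydrogenase and a gluconate kinase. Those most like Notch1 were Smim11 (0.02), Mycbp and Sfxn3 (0.05 each), and those most like the brighter Hes5 probe set were Tram1l1, Acbd3 and Zfp651 (0.03 each). This likeness is a description over 6 arrays, and none of these 9 genes passed the test.

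The rest of the pathway was read from a list of 82 further genes, of which 77 were tested and the remainder were not analysed here. By limma 6 were called higher and 4 lower while 67 missed the threshold, so that 13.0% were called against 7.8% of all genes. These shares are not directly comparable, because the list was chosen with earlier results of these data known. Its genes were also brighter, with a mean level of 7.04 to 7.07 in the knockdown arrays against 5.52 over all genes. The median log2 difference was -0.04. With the replicate block 7 rose and 6 fell, where 11.7% of all genes were called (6.05% higher, 5.64% lower). The 3 added by the block were Fbxw7, a ubiquitin ligase subunit that marks the active Notch fragment for destruction (limma adjusted p 0.0396), Tle4, a Groucho co-repressor that works with HES proteins (0.0171), and Maml3, a Mastermind co-activator (0.0495), named after their values were seen.

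**Figure D3:**
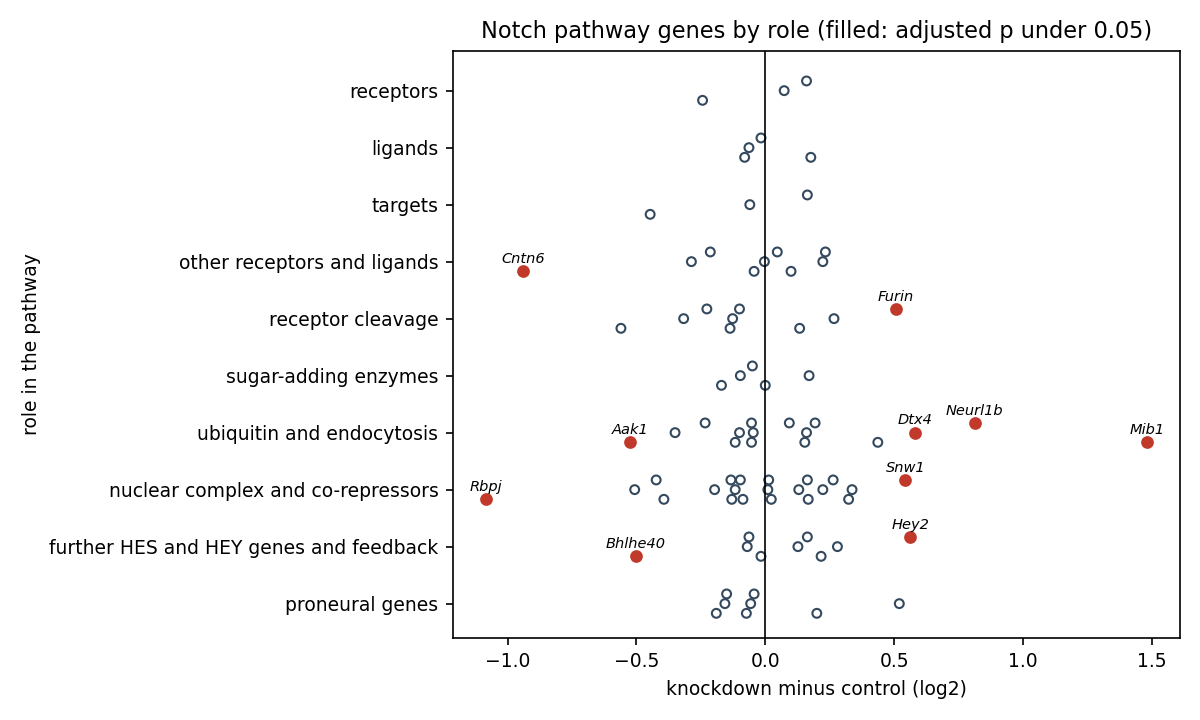
Log2 difference, knockdown minus control (horizontal axis), of the 10 members and 77 other pathway genes, each row being a role in the pathway. Each circle is a gene, filled where the limma adjusted p was under 0.05, and vertical offsets only separate circles; the filled ones, between -1.08 for Rbpj and 1.48 for Mib1, lie in the rows of other roles and none in the rows of the members.

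The signal annotated to Rbpj, the gene of the DNA-binding protein at the end of the pathway, fell. Rbpj read 6.89, 6.78 and 6.88 in the knockdown and 8.01, 8.03 and 7.76 in the control arrays, so all knockdown arrays lay below all controls and each group was tight. Its log2 difference was -1.08 (SE 0.11, 95% interval -1.34 to -0.83), or 2.12-fold (limma adjusted p 0.00147). A second, dim probe set read 3.80, 3.73 and 3.39 against 4.60, 4.31 and 4.01, a difference of -0.67, also without overlap. This dim probe set read near the array medians of 4.03 to 4.11. The RefSeq table lists 3 Rbpj pseudogenes. Which locus each probe set reads is not given, and whether pseudogene transcripts share probes with Rbpj was not tested. A fall of the Rbpj transcript itself is thus not settled by these values.

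Of the 21 genes tested of the nuclear complex and its co-repressors, Rbpj fell, 1 rose and 19 did not pass. The one that rose was Snw1 (SKIP), a splicing factor that also binds the Notch fragment, with levels of 8.33 ± 0.02 in the control and 8.87 ± 0.06 in the knockdown arrays (SD, n = 3) and a limma adjusted p of 0.0106. The RBPJ co-repressor Spen had 0.34 (adjusted p 0.0744) and the acetyltransferase Crebbp -0.39 (0.0831), both named after their values were seen. The call of Snw1 was lost without control replicate 2 (adjusted p 0.0522) and with the RNA integrity number as covariate (0.0508). The Mastermind genes Maml1, Maml2 and Maml3 had 0.22, 0.26 and -0.42 and did not pass.

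Of the 4 ubiquitin ligases that act on the ligands, Mib1 and Neurl1b rose. Mib1, the enzyme that makes Delta and Jagged ligands able to signal by sending them into endocytosis, read 8.90, 8.64 and 8.78 in the knockdown and 7.72, 7.29 and 6.87 in the control arrays. Its knockdown arrays lay close together and all above the widely spread controls. The log2 difference was 1.48 (SE 0.20, 95% interval 1.02 to 1.94), or 2.79-fold (limma adjusted p 0.00434), the largest difference of the 77.

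Neurl1b, a second ligase for the ligands, read 7.72, 7.63 and 7.34 against 7.11, 6.82 and 6.32, a log2 difference of 0.81 (limma adjusted p 0.0473). Mib2 and Neurl1a, relatives of these enzymes, had -0.10 and 0.16 and did not pass. Dtx4, a Deltex ligase acting on the receptor, rose from 8.40 ± 0.13 to 8.98 ± 0.09 (SD, n = 3), 1.49-fold (limma adjusted p 0.0164). Aak1, a kinase of clathrin-coated vesicles, fell from 10.24 ± 0.14 to 9.72 ± 0.18, 1.44-fold (limma adjusted p 0.0435). Neurl1b lost its call without every array but control replicate 1 (0.0727 to 0.157), Dtx4 without knockdown replicate 2 or 3 or control replicate 2 (0.0526 to 0.0788) and Aak1 without these or control replicate 1 (0.103 to 0.149). With the RNA integrity number as covariate all 3 did (0.180, 0.0533 and 0.136), and with median centring Neurl1b (0.0540) and Aak1 (0.0700). In all, 3 of 16 genes of ubiquitin transfer and endocytosis rose, 1 fell and 12 did not pass, and the Notch inhibitor Numb, named after its values were seen, was among the latter with 0.15 (95% interval -0.11 to 0.42).

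Of 9 receptor-cleaving enzymes and subunits 1 rose and 8 did not pass. Furin, the protease that cuts the receptor on its way to the surface and cuts many other proteins too, rose from 7.48 ± 0.12 to 7.99 ± 0.14 (SD, n = 3), 1.42-fold (limma adjusted p 0.0349). Its call was lost without every array but knockdown replicate 1 (0.0526 to 0.131) and with the RNA integrity number as covariate (0.117). Adam17, one of the sheddases, had a log2 difference of -0.56 and Adam10, the other, -0.14, with adjusted p-values by limma of 0.130 and 0.602. The gamma-secretase subunits Psen2, Ncstn, Aph1a, Aph1b, Aph1c and Psenen lay between -0.32 and 0.27 and did not pass. None of the 5 sugar-adding enzymes that tune the receptor was called; Poglut1 and Rfng, with the smallest p-values, had -0.17 and 0.17.

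Among 9 further HES and HEY genes and feedback regulators, 1 rose, 1 fell and 7 did not pass. Hey2, a close relative of Hey1, read 6.50, 6.63 and 6.55 in the knockdown and 5.88, 6.08 and 6.03 in the control arrays. The groups were tight and well apart, with a log2 difference of 0.56 (SE 0.10), or 1.48-fold (limma adjusted p 0.0141). Bhlhe40, a repressor of the same protein superfamily that is not a dedicated Notch target, fell from 7.51 ± 0.06 to 7.01 ± 0.14 (SD, n = 3), 1.42-fold (limma adjusted p 0.0283). Hey2 lost its call without knockdown replicate 2 or 3 (0.0667 and 0.0540) and Bhlhe40 without these, control replicate 2 or control replicate 3 (0.0720 to 0.113), and both with the RNA integrity number as covariate (0.0587 and 0.126). Nrarp, the feedback inhibitor induced by Notch, had 0.28 with an adjusted p of 0.214.

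Of 9 other receptors and ligands only Cntn6 was called. Cntn6, a neuronal adhesion molecule reported as a non-classical Notch ligand, read 4.71, 5.51 and 5.06 against 5.78, 6.43 and 5.89, a log2 difference of -0.94 (limma adjusted p 0.0473). Its call was lost without every array but knockdown replicate 2 and control replicate 1 (0.0744 to 0.156) and with the RNA integrity number as covariate (0.0935). Dlk2, a Delta-like protein, had 0.22 (adjusted p 0.216), and Notch4 and Dll4, known from vessels, had -0.21 and 0.23 and did not pass. The proneural genes, which HES proteins repress, gave 0 calls of 8, and Neurog1 and Neurog3 had -0.15 and 0.20.

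**Figure D4:**
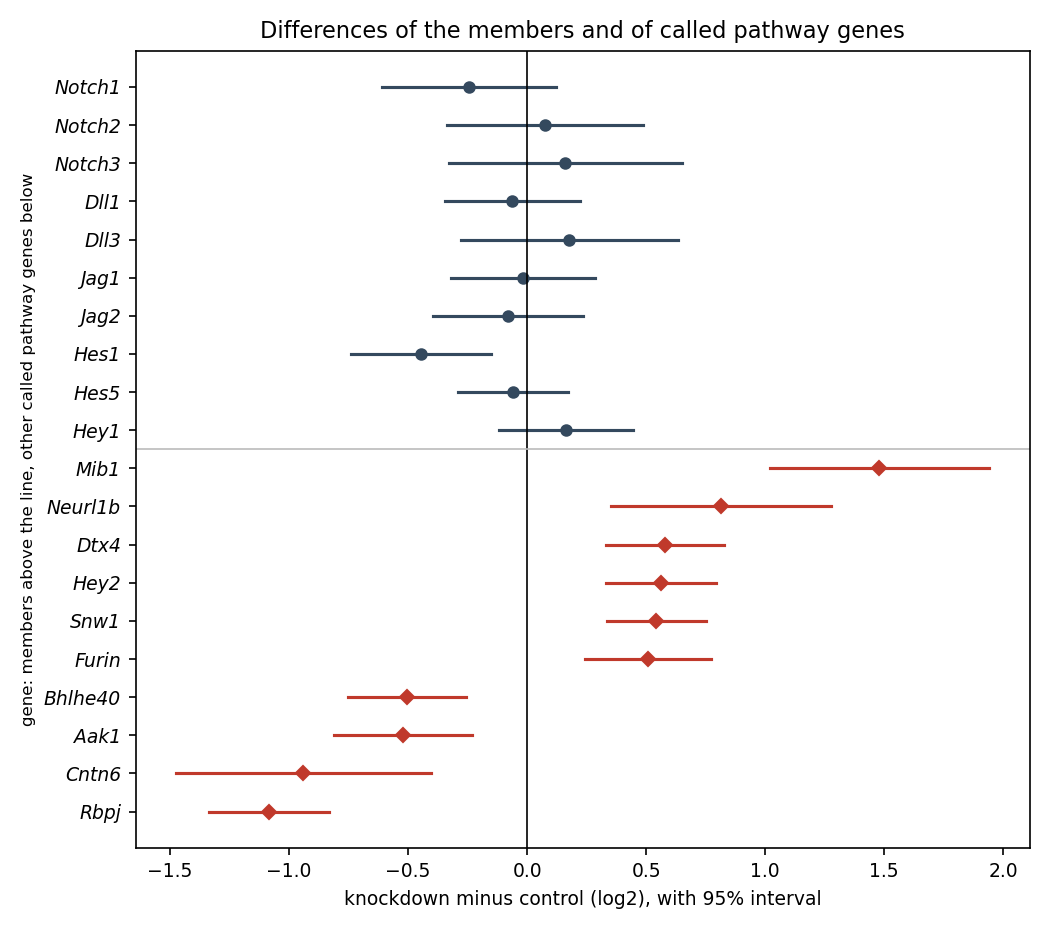
Log2 difference, knockdown minus control (horizontal axis), of the 10 members (circles, above the line) and the 10 other pathway genes called (diamonds, below it). Bars are limma 95% intervals and red marks an adjusted p under 0.05; the Hes1 bar runs from -0.74 to -0.15 yet the gene misses the threshold after adjustment over all genes, and Rbpj and Mib1 lie farthest from 0.

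Of the 10 calls in the wider pathway, those of Rbpj and Mib1 held in every alternative tried, with limma adjusted p-values up to 0.0131 and 0.0280 when single arrays were left out. The other 8 were lost in 1 or more alternatives, as given beside each. Without knockdown replicate 2 or 3 or control replicate 2, 2 of the 77 genes rose in place of 6, and those that fell numbered 2, 1 and 1 in place of 4; without control replicate 3, 2 fell. With the RNA integrity number as covariate 1 rose and 1 fell.

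The cells that use Notch were followed through marker lists. No astrocyte or radial glia marker of 12 was called (median log2 difference -0.16, mean level of the list 8.23 to 8.50 in the knockdown and 8.48 to 8.56 in the control arrays), and the brightest, Fabp7 and Aldoc, had -0.27 and -0.25. Of 8 neural progenitor markers 1 fell, the matrix protein Tnc, by 0.90 on the log2 scale (limma adjusted p 0.00898), while Vim and Sox2 had -0.33 and -0.31 and did not pass. The list's mean level was 5.98 to 6.16 in the knockdown and 5.96 to 6.46 in the control arrays.

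Of 7 markers of dividing cells 6 rose (Mki67, Top2a, Mcm2, Mcm3, Rrm2 and Cdk1), by 0.61 for Mcm2 to 1.59 for Rrm2 on the log2 scale, with a list mean of 5.28 to 5.81 against 4.43 to 4.59. In the oligodendrocyte lineage Pdgfra, a receptor of its precursors, rose from 4.33, 3.91 and 4.60 in the controls to 5.94, 8.08 and 7.22 in the knockdown (log2 levels; limma adjusted p 0.0104), while 6 of that list did not pass, Cnp among them with -0.17. Knockdown replicate 1, where the dimmer Hes5 probe set was low, was the lowest knockdown array for 4 of the 7 dividing cell markers. It was also lowest for 6 of 7 oligodendrocyte, 6 of 8 progenitor and 2 of 12 astrocyte and radial glia markers. Of neuronal lists, it was lowest for 6 of 7 inhibitory, 0 of 8 general and 0 of 7 excitatory markers. Control replicate 3 was the lowest control on that probe set (4.71). It was the highest control for 7 of 7 oligodendrocyte, 6 of 8 progenitor and 0 of 7 dividing cell markers. The part of these cells in the Notch values was not tested.

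For the vessel cells in which Notch3, Hey1, Hey2 and Dll4 are also found, 0 of 8 endothelial markers were called, Kdr and Pecam1 having 0.04 and -0.18, with a list mean of 3.87 to 4.01 in the knockdown and 3.94 to 4.00 in the control arrays. Of 8 mural cell markers 1 fell, Rgs5, by 1.40 on the log2 scale (limma adjusted p 0.00258), with Acta2 at -0.54 and a list mean of 5.28 to 5.55 against 5.62 to 5.83. Microglia and fibroblast markers gave 0 calls of 8 each. The brightest of microglia, Cd68 and Csf1r, had -1.27 and -0.46, and those of fibroblasts, Dcn and Fn1, had 0.05 and -0.05.

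Neuronal markers were bright in every array (list mean 10.7 to 11.0 in the knockdown and 10.8 to 11.2 in the control). Of the 8, Snap25 fell by 0.51 on the log2 scale (limma adjusted p 0.0471, near the threshold), and Stmn2 had 0.14. None of 7 excitatory markers was called, Slc17a7 and Camk2a having 0.17 and 0.24. Of 7 inhibitory markers Lhx6 fell 2.30-fold, and the brightest, Sst and Gad2, had -0.82 and -0.45 and did not pass.

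With the replicate block, which treats same-numbered arrays as pairs, more markers were called lower. Calls over all genes rose in that fit too, from 7.8% to 11.7% in either direction and from 3.64% to 5.64% lower. Inhibitory markers called lower then numbered 4 of 7, with Sst (limma adjusted p 0.00806), Npy (0.00767) and Dlx2 (0.0442) beside Lhx6, and neuronal markers 3 of 8, with Syt1 (0.0130) and Nefm (0.0470) beside Snap25. Cd68 (0.0179) and Csf1r (0.0339) of microglia, Gja1 (0.0385) of astrocytes and Lum (0.0442) of fibroblasts were also called lower by limma in that fit, and the calls in the other marker lists were as many as without the block. RMA levels have no zero, so none of these markers can be called absent.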

How the data were processed

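The authors deposited a table of log2 values, 1 per probe set and array. The submitters' processing notes name RMA and Affymetrix Expression Console, version 1.2.1.20. RMA forces the arrays onto a common distribution, which would hide a shift of most genes, and compresses weak signals. Probe-level intensities were not used here. Precision is limited by the number of arrays. Of 41345 probe sets 23521 have 1 gene symbol, 1814 several and 16010 none named here. For the 22180 genes the brightest probe set by mean over all 6 arrays was used. All 10 members matched a RefSeq gene (GRCm38.p6) by Entrez number, and promoter sequences are from RefSeq.

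Knockdown minus control was fitted with limma 3.58.1 (lmFit, eBayes, R 4.3.3) over all genes with Benjamini-Hochberg adjustment, called at an adjusted p under 0.05, with limma 95% intervals. Folds are 2 raised to the size of the log2 difference. Genes named were the members, called genes of the lists, the 2 of smallest p per pathway role, the 2 brightest per marker list, and the 3 most like Hes1, Hes5 and Notch1 among genes with a mean level of at least 6. Pathway and marker genes named outside this rule (Notch4, Dll4, Adam10, the gamma-secretase subunits, Mib2, Neurl1a, Numb, Spen, Crebbp, Maml1, Maml2, Nrarp, those called only with the replicate block) and Diras1 were chosen after their values were seen. Members and lists were chosen with earlier results of these data known. The fit was tested on simulated data with known changes in 200 of 22180 genes. It called 17.9% of changes of 0.5 log2 units, 86.6% of those of 1 and 98.5% of those of 2. Fewer genes changed there than the 1731 called here, which affects the adjustment, so these shares do not carry over directly.

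Deviations from group means correlated across genes at 0.43, 0.12 and 0.37 for same-numbered arrays and at -0.38 to 0.06 for others. All 3 exceed 0.1, though 0.12 lies close to the 0.06 of an unlike-numbered pair. A fit with same-numbered samples as pairs was therefore run as an alternative. This pairing was seen in the data and is not stated in the labels. The main fit has no block and ignores any pairing, and the status of Hes1 depends on that choice. Alternatives were the replicate block, each array left out, median centring, quantile normalization, a minimum mean level of 5, an intensity trend, robust fitting, RNA integrity as a covariate, averaged probe sets of a gene, a threshold of 0.1 and, added later, every probe set on its own. Figures were drawn with matplotlib 3.10.9.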

Additional observations from a re-analysis of the deposited data

How the results depend on the processing

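The count of members called higher was 0 in every alternative run. The count called lower was 0 except with the replicate block, with genes of a mean level under 5 left out and with a threshold of 0.1, where it was 1, Hes1 each time (log2 difference -0.45). Over all genes these 3 settings, in that order, called 1341, 1173 and 1354 higher and 1252, 1004 and 1238 lower. The main fit called 924 higher and 807 lower. Under those 3 Hes1 had adjusted p-values by limma of 0.0262, 0.0476 and 0.0802, and leaving out arrays moved its difference from -0.54 to -0.37. Differences of members that were never called crossed 0 in places. Jag1 was 0.0067 with median centring and 0.025 with the RNA integrity number as covariate, and -0.12 to 0.055 with single arrays left out. With the RNA integrity number as covariate Jag2 was 0.032 and Hes5 was 0.0071. Hes5 was 0.35 with the mean of its probe sets and 0.76 on its other probe set. With single arrays left out Notch2 ran from -0.10 to 0.18, Dll1 from -0.16 to 0.03 and Jag2 from -0.21 to 0.0033.

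Of other pathway genes, 2 to 5 rose and 1 to 4 fell with single arrays left out, and 1 rose and 1 fell with the RNA integrity number as covariate. Over all genes, 383 to 800 rose and 306 to 687 fell with single arrays left out, 402 and 356 with the RNA integrity number as covariate, and 1252 fell with the replicate block and 1238 at a threshold of 0.1. The replicate block ended no call of a pathway gene named here. The Diras2 difference was called in every alternative. The cause of these shifts was not tested.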
